A study of Mus musculus with 30 samples.

Results

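Spinal cord microglia of mice on a fixed morphine regimen were compared directly with those of mice on an escalating regimen, with no saline library in the contrast. The comparison was defined by the labelled regimen alone and used 7 of the 30 libraries of the series, 4 of fixed morphine (replicates 1 to 4) and 3 of escalating morphine (replicates 1 to 3). All 7 came from C57BL/6J mice with no modified allele named in the labels. Both regimens are labelled as chronic morphine dosing, and the labels give no dose, duration, age or sex. The saline libraries of the same regimens, 4 for fixed dosing (replicates 3 to 6) and 3 for escalating dosing (replicates 7 to 9), served to estimate the spread between libraries and are set beside the morphine values where stated. The cells were selected from the caudal lumbar cord with beads against CD11b, an integrin chain that microglia share with monocytes and neutrophils, after perfusion with cold PBS and myelin removal. Values are FPKM, a fragment rate scaled to transcript length and library size, and differences are fixed minus escalating on the scale of log2(FPKM + 1). The labels do not say that each library came from its own mouse, so the p-values reflect variation among the libraries as sequenced, which may in part be technical.

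Morphine acts mainly on the mu opioid receptor, a receptor coupled to inhibitory G proteins. Regulators of G-protein signalling (RGS proteins) speed the switching off of such G proteins, and receptor kinases with arrestins uncouple the receptor from them. Spinal microglia are resident macrophages that have been studied in opioid tolerance and in pain after opioids, including through the Toll-like receptor TLR4 and purinergic receptors. Proliferation, cytokine release and antigen presentation are among the states these cells can enter.

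The 7 libraries did not split cleanly by regimen. Escalating replicate 1 correlated at r = 0.981 with fixed replicate 4 and at 0.966 with fixed replicate 1, but at 0.909 and 0.906 with escalating replicates 2 and 3 (Pearson, log2(FPKM + 1), 11759 genes). Escalating replicates 2 and 3 correlated at 0.976 with each other. Fixed replicates 2 and 3 formed a close pair as well, at 0.988. Between fixed replicate 4 and escalating replicate 1, 193 genes (1.64%) differed by at least 1 log2 unit, against 2484 genes (21.1%) between escalating replicates 1 and 3. Of 1730 genes whose fixed mean lay at least 1 log2 unit from the mean of escalating replicates 2 and 3, escalating replicate 1 was nearer the fixed mean in 1457 (84.2%). Replicate 1 had no part in choosing these genes, so part of this share can come from the choice. The same tally with replicate 2 or 3 left out was not made. No nonzero value was identical between any of these libraries, and the labels give no batch or date. The labels were taken as given, and the files hold nothing against which the label of escalating replicate 1 could be checked, so every fixed minus escalating value below depends on that label. Because 1 escalating library stood apart from the other 2, counts of calls, list medians and the differences of leading genes are also given without it, as the contrast of 4 fixed against 2 escalating libraries. This choice was made from the values themselves. Leaving that library out tends to widen the differences and to narrow the escalating spread. The calls and adjusted p without it may therefore overstate the separation and are given as description only.

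**Figure D1:**
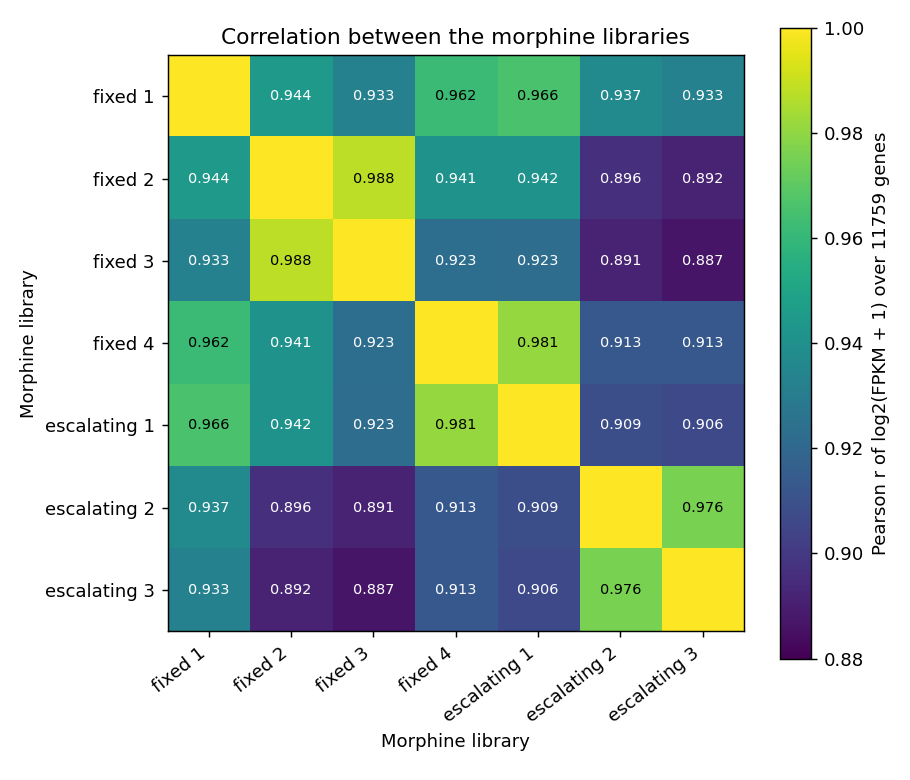
Pearson correlation of log2(FPKM + 1) over 11759 genes for each pair of the 7 morphine libraries, fixed libraries first on both axes. Escalating 1 sits at 0.981 with fixed 4 and at 0.906 with escalating 3, while fixed 2 and fixed 3 form a pair at 0.988.

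Depth is unknown, because the table carries FPKM and not counts. A relative floor was computed as the 5th percentile of nonzero FPKM times transcript length, which is smaller in deeper libraries. It was 0.118 to 0.135 in the fixed libraries, against 0.146, 0.401 and 0.450 in escalating replicates 1, 2 and 3. The groups did not overlap in the floor (exact two-sided permutation p = 0.0571, the smallest that 4 against 3 libraries allow). Genes at 1 FPKM or more numbered 9979 to 10412 per fixed library and 10213, 9702 and 9702 per escalating library (exact two-sided permutation p = 0.114). The sum of FPKM per library was 313532 to 338487 in fixed morphine, against 344715, 404006 and 365977 in escalating replicates 1 to 3. The groups did not overlap in this sum either (exact two-sided permutation p = 0.0571). For depth, only the relative floor was measured, not depth itself. Within escalating morphine, replicate 1, the library that stood apart, had the floor nearest to the fixed libraries. The contrast without it sets the fixed libraries only against floors of 0.401 and 0.450. What part the floor had in the calls of that contrast was not tested. With the floor as a covariate 1 gene, Dpm1, was called, and 103 had an unadjusted p under 0.05. Because the floor did not overlap between the regimens, a depth effect and a regimen difference cannot be told fully apart in that fit. Values with this covariate are given below as description only.

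Across all 11759 genes tested, 2 were called at an adjusted p under 0.05 (0.017%; limma with an intensity trend, Benjamini-Hochberg), none higher and 2 lower in fixed morphine. The unadjusted p was under 0.05 for 1563 genes (13.3%). Without escalating replicate 1 the calls numbered 1007 (8.56%), 726 higher (6.17%) and 281 lower (2.39%) in fixed morphine, and both calls from the 7 libraries were among them. Leaving out any other morphine library gave 1 to 3 calls. The groups did not overlap in 949 genes (8.07%): the 4 fixed libraries lay entirely above the 3 escalating libraries in 584 genes (4.97%) and entirely below them in 365 (3.1%). The median difference over all genes was 0.18, or 0.29 without escalating replicate 1; it was -0.020 after quantile normalization, 0.067 with median-ratio scaling, 0.38 after rescaling to a common sum and -0.0073 with the depth floor as a covariate. Differences of gene groups are therefore set beside this median. Over all genes, 8090 (68.8%) had a positive difference, and counts of positive members below are read beside that share. No gene of any list described below was called by limma with all 7 libraries, so the number with an unadjusted p under 0.05 is given, to be read beside the 13.3% of all genes. Calls made without escalating replicate 1 are likewise read beside 6.17% higher and 2.39% lower, and counts of genes without overlap beside 4.97% above and 3.1% below.

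**Figure D2:**
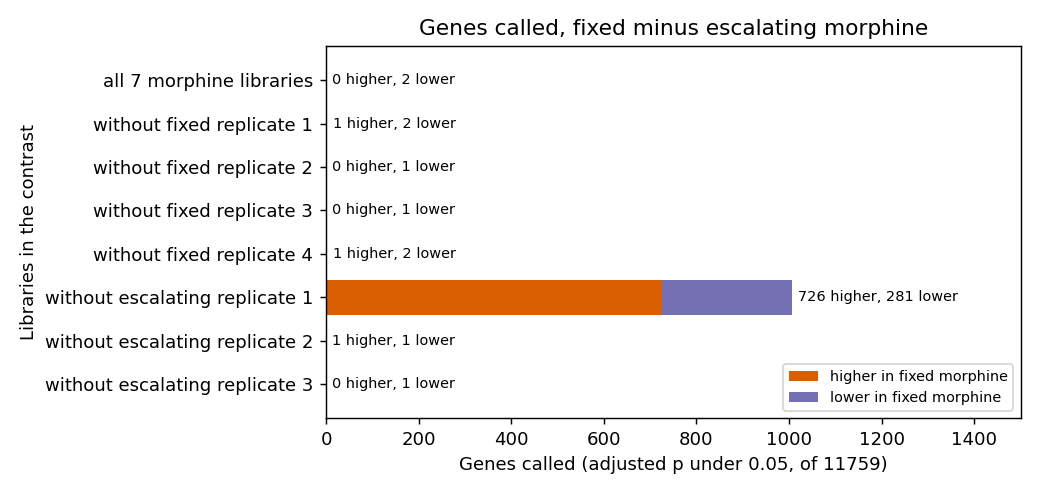
Number of genes called higher or lower in fixed than in escalating morphine (bars, of 11759 tested) with all 7 morphine libraries and with each left out in turn. Without escalating replicate 1 there were 726 higher and 281 lower calls, and every other choice gave 1 to 3 calls.

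The 2 called genes were both listed at 0 in every fixed library. Dpm1, which encodes the catalytic subunit of the enzyme that makes dolichol-phosphate mannose for protein glycosylation, had 6.62, 3.94 and 4.82 FPKM in the escalating libraries and adjusted p = 0.00133. Its 7 saline values were all above 0, at 5.31, 4.66, 6.23 and 10.8 FPKM in fixed saline, against 7.92, 7.72 and 9.28 FPKM in escalating saline. Over the 23 libraries of the series outside the morphine groups, however, Dpm1 was listed at 0 in 11. Gm10052 had 9.32, 14.8 and 12.9 FPKM in the escalating libraries (adjusted p = 0.0106) and was listed at 0 in 18 of those 23 libraries. Both genes therefore separated the 4 fixed from the 3 escalating libraries without overlap, with escalating replicate 1 on the escalating side.

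In the mouse annotation GENCODE M21 (GRCm38, the build mm10), Dpm1 is a protein-coding gene at chr2:168209048-168230591 on the minus strand, and it overlaps the gene model Gm20716 on the same strand. Gm10052 is a processed pseudogene at chr9:123689233-123690192, also on the minus strand. Reads from an overlapping gene or from a pseudogene's parent can be assigned to either, so both values are uncertain as levels. A value of exactly 0 in an FPKM table can also be a failed estimate. Of 8255 genes that reached 5 FPKM in a morphine library, 146 (1.77%) were listed at 0 in at least 1 of the 7. Dpm1 and Gm10052 were the 2 listed at 0 in exactly the 4 fixed libraries. A further 14 genes were at 0 in the 4 fixed libraries and escalating replicate 1, among them Slirp, Yipf2 and Rgp1, and 17 were at 0 in escalating replicates 2 and 3 only. Of these genes, 0 were at 0 in the 3 escalating libraries alone.

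Below the threshold, the genes with the lowest p among those lower in all fixed than in all escalating libraries are given next. Sun2, a subunit of the complex that links the nuclear envelope to the cytoskeleton, had 6.20, 8.50, 6.48 and 9.44 FPKM in fixed morphine, against 14.2, 57.1 and 48.9 FPKM in escalating morphine. The fixed values lay in a narrow band, and escalating replicate 1 lay nearer to them than to escalating replicates 2 and 3. The difference was -2.05 ± 0.37 (SE; limma adjusted p = 0.256) and -2.66 without escalating replicate 1 (adjusted p = 5.11e-05). Rgs2, a regulator that shortens signalling through G proteins, had 34.97, 28.3, 28.4 and 32.6 FPKM in fixed morphine, against 44.1, 105 and 105 FPKM in escalating morphine (difference -1.32 ± 0.25, adjusted p = 0.338, and -1.73 without escalating replicate 1). Lag3, a surface receptor that binds MHC class II, had 46.6, 16.8, 11.3 and 38.4 FPKM in fixed morphine, against 56.5, 401 and 315 FPKM in escalating morphine, a difference of -2.94 ± 0.58, or -3.81 without escalating replicate 1. For both genes, escalating replicates 2 and 3 stood well above the remaining 5 libraries.

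Tlr9, the endosomal receptor for unmethylated CpG DNA, had 1.96, 1.78, 1.27 and 1.78 FPKM in fixed morphine, against 2.50, 16.6 and 19.9 FPKM in escalating morphine (difference -2.02 ± 0.47, or -2.84 without escalating replicate 1). Lst1, a myeloid transmembrane adaptor gene, had 36.2, 20.0, 21.0 and 41.7 FPKM in fixed morphine, against 50.4, 224 and 184 FPKM in escalating morphine. Lrrc25, a leucine-rich repeat membrane protein gene of myeloid cells, had 11.9, 8.05, 7.99 and 13.1 FPKM in fixed morphine, against 19.2, 45.1 and 44.4 FPKM in escalating morphine. The pattern was the one seen for Sun2, with the fixed libraries lowest, escalating replicate 1 just above them and replicates 2 and 3 highest. Stk24, a kinase of the STE20 family, had 3.82, 5.66, 5.22 and 6.93 FPKM in fixed morphine, against 7.43, 24.6 and 20.0 FPKM in escalating morphine. Sqstm1, which encodes the autophagy receptor p62, had 38.8, 36.5, 35.8 and 44.0 FPKM in fixed morphine, against 52.3, 99.2 and 83.4 FPKM in escalating morphine. The transcription factor gene Hhex had a difference of -0.97 ± 0.23, and Man2b2, a lysosomal mannosidase gene, of -0.98 ± 0.24. These 10 genes, Sun2 to Man2b2, had adjusted p of 0.256 or 0.338 with all libraries, and all 10 were called lower in fixed morphine without escalating replicate 1. They were chosen for a low p and for groups that did not overlap, so these calls follow in part from the choice.

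Among genes higher in all fixed than in all escalating libraries, Pds5a, which encodes a regulator of cohesin on chromosomes, had the lowest p. It had 17.3, 28.8, 28.2 and 18.7 FPKM in fixed morphine, against 17.1, 2.91 and 4.31 FPKM in escalating morphine, a difference of 1.71 ± 0.42 (limma adjusted p = 0.338). The margin between the groups was 17.3 FPKM in the lowest fixed library against 17.1 FPKM in escalating replicate 1. Ccl12, a chemokine gene for a ligand of the receptor CCR2, had 124, 269, 405 and 178 FPKM in fixed morphine, against 83.3, 64.8 and 48.8 FPKM in escalating morphine (difference 1.77 ± 0.44). Socs3, a feedback inhibitor of cytokine signalling through STAT3, had 40.7, 39.99, 46.0 and 60.2 FPKM in fixed morphine, against 35.4, 14.1 and 13.4 FPKM in escalating morphine (difference 1.24 ± 0.33). By the rule of choice, all 4 fixed libraries were higher than each escalating library in both genes. In Ccl12 escalating replicate 1 lay closer to its own group.

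Ppp1r14b, which encodes an inhibitor of protein phosphatase 1, had 73.1, 122, 147 and 68.7 FPKM in fixed morphine, against 61.8, 24.2 and 32.8 FPKM in escalating morphine. Bclaf1, a nuclear factor of transcription and RNA processing, had 17.3, 23.5, 23.8 and 16.8 FPKM in fixed morphine, against 14.2, 9.95 and 7.80 FPKM in escalating morphine. Srek1, a splicing regulator gene, had 10.4, 12.5, 12.1 and 12.5 FPKM in fixed morphine, against 7.48, 5.67 and 6.54 FPKM in escalating morphine. In these genes escalating replicate 1 lay nearer to the fixed libraries than replicates 2 and 3 did. Pnpt1, a mitochondrial polynucleotide phosphorylase gene, had a difference of 0.97 ± 0.26, Elk4, a partner of serum response factor, of 1.03 ± 0.26, and Zfp131, a zinc-finger gene, of 1.07 ± 0.28. Vkorc1l1, a vitamin K epoxide reductase gene, differed by 1.33 ± 0.34. All 10 higher genes, Pds5a to Vkorc1l1, had adjusted p of 0.338 and were called without escalating replicate 1. They too were chosen for a low p and for groups that did not overlap, so these calls follow in part from the choice. With the depth floor as a covariate, the 20 not-called genes of both directions had a median of 0.628 times their reported difference, from 0.348 to 0.896 times.

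**Figure D3:**
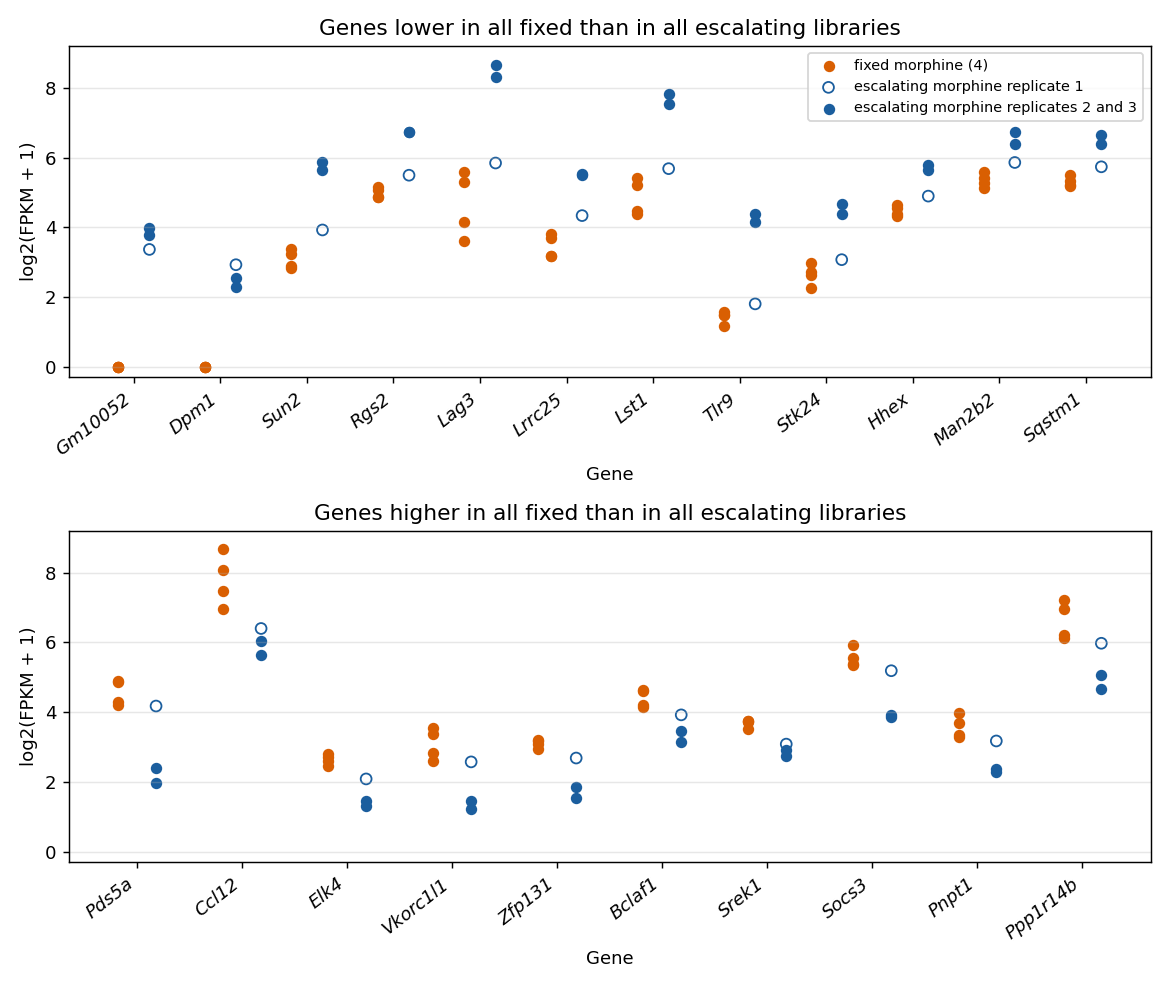
Expression as log2(FPKM + 1) in each morphine library for the 12 lower and 10 higher genes of lowest p whose groups did not overlap, fixed (filled orange) left of escalating (blue; replicate 1 open). In most genes the open symbol lies between the fixed values and the filled blue values; Gm10052 and Dpm1 were listed at 0 in all 4 fixed libraries.

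The labelled cell type was checked against its markers, and microglial identity genes were expressed at high levels in every library. P2ry12, the ADP receptor that guides microglial processes, had 1351, 927, 885 and 1007 FPKM in fixed morphine, against 1378, 1012 and 773 FPKM in escalating morphine. Tmem119, a microglial membrane protein gene, had 1115, 1066, 1070.3 and 833 FPKM in fixed morphine, against 1178, 1309 and 992 FPKM in escalating morphine, and the fractalkine receptor gene Cx3cr1 had 1011, 786, 878 and 687 FPKM in fixed morphine, against 1059, 1239 and 999.7 FPKM in escalating morphine. The 2 groups overlapped in each of these 3 genes, with differences of 0.0037 ± 0.24, -0.18 ± 0.23 and -0.40 ± 0.23 that missed the threshold (limma adjusted p = 1.00, 0.758 and 0.455). Those of P2ry12, Tmem119 and Cx3cr1 changed sign under at least 1 other scaling. Of 30 homeostatic genes tested, 7 were higher and 23 lower in the fixed mean, and 7 had an unadjusted p under 0.05. The list median was -0.21 beside 0.18 for all genes. After quantile normalization it was 0.024 beside -0.020 for all genes, so the list did not lie below all genes under that scaling. Without escalating replicate 1 the median was -0.21, and 6 were called lower and none higher, the 6 being Siglech, Cst3, Trem2, Tyrobp, Crybb1 and Cd33.

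Cst3, the cystatin C gene and the one with the highest FPKM among these, had 18574, 12642, 12708 and 11846 FPKM in fixed morphine, against 15103, 42604 and 40240.2 FPKM in escalating morphine. Escalating replicate 1 lay among the fixed libraries, and replicates 2 and 3 were near the 7 saline libraries, which ran from 40841 to 65263 FPKM. Siglech, a sialic acid-binding receptor gene of microglia, had 344, 289, 286 and 256 FPKM in fixed morphine, against 354, 628 and 570.3 FPKM in escalating morphine, with all fixed libraries below all escalating libraries by a margin of 343.5 against 353.8 FPKM (difference -0.78 ± 0.20, adjusted p = 0.338). Tyrobp, the signalling adaptor of TREM2, had 983, 751, 796 and 942 FPKM in fixed morphine, against 828, 2577 and 2523 FPKM in escalating morphine. Trem2 had 666, 398, 367 and 501 FPKM in fixed morphine, against 530.1, 972 and 881 FPKM in escalating morphine. In both genes escalating replicate 1 lay within the range of the fixed libraries, and without it they were called lower in fixed morphine (limma adjusted p = 0.0100 for Tyrobp and 0.0430 for Trem2).

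The Fc receptors, which bind antibody on phagocytes, lay below the median of all genes. Of 8 tested, 7 had a negative difference, the median was -0.47 and 3 had an unadjusted p under 0.05. With escalating replicate 1 left out, the median was -0.62 and 3 of the 8 were called lower, against 2.39% of all genes. Fcgr2b, the inhibitory receptor of the family, had 97.7, 89.0, 99.2 and 112 FPKM in fixed morphine, against 126, 247 and 191 FPKM in escalating morphine, and Fcer1g, the signalling chain, had 744, 656, 766 and 735 FPKM in fixed morphine, against 760.5, 1722 and 1553 FPKM in escalating morphine. The fixed libraries were all lower for Fcgr2b, and for Fcer1g escalating replicate 1 lay among them. Of 9 MHC class II genes, all 9 had a negative difference, with a median of -0.47. In 3 of them, H2-Oa, H2-Eb1 and H2-DMa, the unadjusted p was under 0.05, at 0.00280, 0.00548 and 0.0250. Without escalating replicate 1 the median was -0.63, 3 of the 9 were positive, and H2-Oa and H2-DMa were called lower.

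H2-Oa, a chain of the modulator of peptide loading, had 27.3, 13.5, 14.7 and 19.0 FPKM in fixed morphine, against 27.4, 73.8 and 46.7 FPKM in escalating morphine (difference -1.30 ± 0.36). H2-Eb1, a chain of a classical class II molecule, had 4.95, 6.64, 3.67 and 8.84 FPKM in fixed morphine, against 19.7, 12.7 and 10.2 FPKM in escalating morphine (difference -1.12 ± 0.34). H2-Eb1 departed from the pattern of most genes, because escalating replicate 1 was the highest of the 7 libraries, and without that library its difference was -0.87 (adjusted p = 0.156). B2m, the light chain of MHC class I, had 904, 657, 769.7 and 878 FPKM in fixed morphine, against 965, 4838 and 3932 FPKM in escalating morphine, a difference of -1.73 ± 0.42 (adjusted p = 0.338). Its fixed libraries were below every escalating library, but escalating replicate 1 was only just above them. Over the 19 class I presentation genes, B2m among them, the median was 0.0998, 11 were positive, and B2m was the 1 gene with an unadjusted p under 0.05. With escalating replicate 1 left out the median was 0.29, Tap2, a peptide transporter subunit, was called higher and B2m lower.

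Complement genes were close to the median of all genes, at 0.15 over 16 tested (0.32 without escalating replicate 1) with 10 positive and 1 at an unadjusted p under 0.05. C1qa, a chain of the initiating complex of the classical pathway, had 1449.7, 1320.0, 1444 and 1264 FPKM in fixed morphine, against 1473, 3796 and 3336 FPKM in escalating morphine (difference -0.96 ± 0.30, limma adjusted p = 0.338). It was the 1 complement gene called lower without escalating replicate 1, at -1.38 (adjusted p = 0.00259). Of 27 lysosomal and protease genes, 8 were positive, the median was -0.18 (-0.24 without escalating replicate 1), 4 had an unadjusted p under 0.05, and 7 had all fixed libraries below all escalating libraries, against 3.1% of all genes. Ctss, the cathepsin S gene, had 5117, 3871, 3989 and 4661 FPKM in fixed morphine, against 5481, 7843 and 6681 FPKM in escalating morphine, and Hexa, a subunit of beta-hexosaminidase, had 391, 267, 255 and 303 FPKM in fixed morphine, against 377, 582 and 500.0 FPKM in escalating morphine. Ctss belonged to those 7, and Hexa did not. Cst3, Hexa and Atp6v0d1, 3 of the 27, were called lower without escalating replicate 1.

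The mu opioid receptor gene Oprm1 was listed at 0 in all 7 morphine libraries. Of the 23 libraries outside the morphine groups, it was listed at 0 in 18 and at 0.986 to 1.90 FPKM in the other 5. Of 9 opioid receptor and peptide genes, 5 passed the filter on low values, and the largest level among them was that of Ogfr, the opioid growth factor receptor, at 20.0, 17.6, 17.8 and 19.9 FPKM in fixed morphine, against 17.8, 22.3 and 22.3 FPKM in escalating morphine. The enkephalin precursor gene Penk had 0.906, 0.456, 2.02 and 1.48 FPKM in fixed morphine, against 1.11, 0.535 and 0 FPKM in escalating morphine. In neither gene were the groups apart, and none of the 5 had an unadjusted p under 0.05 or was called without escalating replicate 1. At the level of the signalling machinery, 25 genes for G proteins, RGS proteins, arrestins and receptor kinases had a median of 0.19 (0.33 without escalating replicate 1) with 16 positive and 5 at an unadjusted p under 0.05.

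Within that machinery Rgs2 and Rgs10 lay on the opposite side from the receptor kinase genes Adrbk1 and Grk6. They were picked as the members of lowest p, so they do not stand for all RGS or kinase genes of the list. Rgs10, a microglial RGS gene, had 404, 290.1, 275 and 332 FPKM in fixed morphine, against 349, 685 and 689 FPKM in escalating morphine (difference -0.77 ± 0.26), and Rgs2 is described above. Adrbk1, the earlier symbol of Grk2, which encodes a kinase that phosphorylates active receptors, had 81.9, 97.9, 87.5 and 86.0 FPKM in fixed morphine, against 106, 24.9 and 34.4 FPKM in escalating morphine (difference 0.95 ± 0.35). The related kinase gene Grk6 had 16.8, 31.4, 29.1 and 41.4 FPKM in fixed morphine, against 32.2, 3.84 and 4.49 FPKM in escalating morphine (difference 1.61 ± 0.60). In Rgs10, Adrbk1 and Grk6, escalating replicate 1 lay among or beyond the fixed libraries. Without it, 2 of the 25 were called lower in fixed morphine, Rgs2 and Rgs10, and 3 higher, Adrbk1, Grk6 and the inhibitory G-protein gene Gnai2.

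Toll-like receptors and their adaptors had a median of 0.084 over 27 genes (0.29 without escalating replicate 1), with 16 positive and 4 at an unadjusted p under 0.05. Tlr4, the receptor for bacterial lipopolysaccharide, had 25.3, 23.8, 20.5 and 25.2 FPKM in fixed morphine, against 26.8, 20.0 and 7.35 FPKM in escalating morphine, a difference of 0.54 ± 0.41 (limma adjusted p = 0.584; -0.14 with the depth floor as a covariate). Its co-receptor gene Ly96 had 8.33, 6.20, 7.89 and 10.6 FPKM in fixed morphine, against 10.6, 26.9 and 20.0 FPKM in escalating morphine, and the kinase gene Irak1, which acts downstream of MyD88, had 25.5, 32.0, 31.8 and 26.1 FPKM in fixed morphine, against 26.7, 6.60 and 11.8 FPKM in escalating morphine. Ly96 and Irak1 had opposite differences, of -1.05 ± 0.32 and 1.09 ± 0.34. The receptor, its co-receptor and the kinase thus did not differ in 1 direction. Tlr9 and Ly96 were called lower and Irak1 higher once escalating replicate 1 was left out.

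No inflammatory cytokine gene passed the threshold. Tnf had 1.61, 2.18, 1.98 and 2.23 FPKM in fixed morphine, against 1.62, 2.28 and 2.01 FPKM in escalating morphine, and Il1b had 1.85, 2.38, 0.986 and 9.17 FPKM in fixed morphine, against 7.72, 2.56 and 5.64 FPKM in escalating morphine. Both groups spanned nearly the same range in Tnf, and in Il1b the highest value belonged to fixed replicate 4 and the next to escalating replicate 1. The 20 cytokine and feedback genes tested had a median of 0.015 (0.19 without escalating replicate 1) with 12 positive and 3 at an unadjusted p under 0.05. Tgfb1, a cytokine that maintains microglial identity, had 104, 96.1, 99.7 and 82.7 FPKM in fixed morphine, against 113, 19.1 and 19.4 FPKM in escalating morphine. Csf1, a growth factor for macrophages, had 6.69, 7.25, 9.02 and 11.5 FPKM in fixed morphine, against 7.45, 2.51 and 1.69 FPKM in escalating morphine. In both genes escalating replicate 1 lay at the level of the fixed libraries, and the difference was 1.42 ± 0.50 for Tgfb1 (-0.11 with the depth floor as a covariate) and 1.13 ± 0.37 for Csf1. Without that library, Tgfb1, Csf1 and Socs3 were called higher in fixed morphine.

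Of 18 chemokine genes, 8 were positive, the median was -0.014 (-0.19 without escalating replicate 1) and 6 had an unadjusted p under 0.05. Ccl12 was called higher and Ccl9 lower with escalating replicate 1 left out. Ccl9, a chemokine gene of the CC family, had 18.8, 12.9, 12.3 and 18.6 FPKM in fixed morphine, against 18.2, 44.6 and 39.2 FPKM in escalating morphine. Interferon-stimulated genes had a median of 0.044 over 37 genes with 23 positive and 2 at an unadjusted p under 0.05, and of 0.48 without escalating replicate 1, beside 0.29 for all genes. Stat2, a subunit of the transcription factor that interferons activate, had 15.3, 10.8, 12.3 and 15.6 FPKM in fixed morphine, against 15.3, 5.58 and 3.50 FPKM in escalating morphine (difference 0.87 ± 0.37). It and Cmpk2 were the 2 interferon-stimulated genes called without that library, both higher.

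Stress genes of the endoplasmic reticulum had a median of 0.49 over 26 genes (0.71 without escalating replicate 1), with 18 positive and 7 at an unadjusted p under 0.05. Hspa5, the luminal chaperone BiP, had 335, 411, 513 and 305 FPKM in fixed morphine, against 319.7, 151 and 118 FPKM in escalating morphine (difference 1.10 ± 0.31, limma adjusted p = 0.338). Hyou1, another chaperone of the compartment, had 18.7, 28.2, 32.6 and 17.5 FPKM in fixed morphine, against 21.1, 5.79 and 6.37 FPKM in escalating morphine (difference 1.24 ± 0.38). Atf4, the translation-controlled transcription factor of the stress response, had 29.1, 27.8, 29.9 and 28.9 FPKM in fixed morphine, against 28.9, 57.2 and 61.2 FPKM in escalating morphine (difference -0.67 ± 0.25). In all 3, escalating replicate 1 lay within the range of the fixed libraries and replicates 2 and 3 stood apart, lower for the chaperones and higher for Atf4. Without it 5 members were called higher, Hspa5, Hyou1, Pdia3, Pdia4 and Ern1, and 2 lower, Atf4 and Ddit3. Ddit3 was listed at 0 in fixed replicates 1, 2 and 3 and in escalating replicate 1, so its call rests on values listed at 0.

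The promoter of Hspa5 is shown because it carries the stress response element of this pathway, CCAAT and CCACG with 9 bases of any kind between them, searched on both strands. It was found in the 250 bases upstream of 8 of 25 stress genes with a window (32.0%; 28 genes listed) and of 33 of all 27025 windows (0.122%). Capitals mark the fixed letters of the match. The sequence is from RefSeq, GRCm38.p6, chr2:34771940-34772089, plus strand, written 5′ to 3′ on the gene's strand. Its last base lies just before the gene's start in RefSeq. In GENCODE M21 the gene starts earlier, at 34771970, so most of this stretch lies inside that gene model.
Hspa5: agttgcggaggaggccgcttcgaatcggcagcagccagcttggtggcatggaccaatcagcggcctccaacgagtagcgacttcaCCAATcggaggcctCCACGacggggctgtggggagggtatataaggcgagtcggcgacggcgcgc
A second CCAAT upstream in this stretch is left in lower case because it is not part of a full match. The match is a description of these letters and no test of binding.

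Heat shock chaperones had a median of 0.38 over 22 genes (0.43 without escalating replicate 1) with 18 positive and 2 at an unadjusted p under 0.05. Their mean level was 4.04, 4.48, 4.64 and 4.04 (mean log2(FPKM + 1)) in fixed replicates 1 to 4, against 3.99, 4.05 and 3.95 in escalating replicates 1 to 3. The list was thus highest in fixed replicates 2 and 3, while fixed replicates 1 and 4 lay within the escalating range. Hspa1b, an inducible HSP70 gene, had 22.8, 11.1, 7.02 and 13.9 FPKM in fixed morphine, against 9.85, 1.72 and 2.59 FPKM in escalating morphine (difference 1.53 ± 0.44), and its near-identical neighbour Hspa1a had 16.4, 8.55, 5.33 and 9.46 FPKM in fixed morphine, against 6.71, 6.86 and 5.86 FPKM in escalating morphine. Reads of this gene pair can be split between them, so the separate values are uncertain. Hspa1b was the 1 heat shock gene called without escalating replicate 1. Of 22 glucocorticoid-responsive genes, 12 were positive and the median was 0.091 (0.20 without escalating replicate 1), with 2 at an unadjusted p under 0.05. Fkbp5, a classical target of the glucocorticoid receptor, had 16.3, 26.5, 28.8 and 39.1 FPKM in fixed morphine, against 19.1, 36.3 and 28.3 FPKM in escalating morphine, with wide overlap. Glul, the glutamine synthetase gene, had 60.0, 43.3, 53.6 and 50.4 FPKM in fixed morphine, against 58.6, 149 and 146 FPKM in escalating morphine, and it and Sult1a1 were called lower without escalating replicate 1. Of 20 immediate early genes, 15 were positive, the median was 0.27 (0.47 without escalating replicate 1) and none had an unadjusted p under 0.05; Fos had 2.21, 0.923, 0.994 and 9.38 FPKM in fixed morphine, against 2.65, 5.05 and 3.57 FPKM in escalating morphine, and its highest value belonged to fixed replicate 4. Of 20 clock genes, 15 were positive, with a median of 0.18, close to that of all genes (0.36 without escalating replicate 1), and 2 had an unadjusted p under 0.05.

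Cell-cycle genes showed the largest median differences of the lists with at least 8 tested genes, and the difference rested on fixed replicates 2 and 3. Mki67, a marker of cycling cells, had 2.43, 51.9, 43.5 and 8.86 FPKM in fixed morphine, against 5.07, 0.487 and 0.536 FPKM in escalating morphine (difference 2.81 ± 0.77, limma adjusted p = 0.338). Mcm6, a subunit of the replicative helicase, had 9.77, 90.1, 101 and 12.1 FPKM in fixed morphine, against 11.4, 4.68 and 6.16 FPKM in escalating morphine. Rrm2, a ribonucleotide reductase subunit gene, had 3.84, 77.4, 91.9 and 19.9 FPKM in fixed morphine, against 11.4, 2.25 and 1.33 FPKM in escalating morphine. Fixed replicates 2 and 3 were high in all 3 genes, and fixed replicates 1 and 4 lay below and above escalating replicate 1. Ncapg, a condensin subunit gene, had 0.881, 18.6, 27.0 and 4.00 FPKM in fixed morphine, against 1.80, 0 and 0.562 FPKM in escalating morphine. Ccne1, the cyclin E1 gene that acts at entry into S phase, had 1.66, 14.3, 18.4 and 1.95 FPKM in fixed morphine, against 1.23, 0.579 and 0.212 FPKM in escalating morphine, and its groups did not overlap, by 1.66 against 1.23 FPKM at the margin.

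All 40 mitotic genes and all 37 replication genes had a positive difference, with medians of 1.89 and 1.49. The unadjusted p was under 0.05 for 32 of the 40 and 23 of the 37, and none passed the adjusted threshold. Without fixed replicates 2 and 3 together, an alternative chosen after seeing the data, the medians were 0.42 for mitosis and 0.15 for replication, beside 0.096 for all genes. Without escalating replicate 1 they were 2.18 and 1.60, and 1 gene of each list was called higher, Mki67 and Rrm2. The mean level of the mitotic list was 1.48, 4.99, 5.12 and 2.74 (mean log2(FPKM + 1)) in fixed replicates 1 to 4 and 2.24, 1.35 and 1.29 in escalating replicates 1 to 3. In a bulk sample, more cycling cells and more of these transcripts per cell cannot be told apart.

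Promoters of 3 of these genes are shown for the letters that cell-cycle genes often share, the CCAAT box (ATTGG on the other strand) and TTTGAA, the core of the cell-cycle homology region. CCAAT was present on either strand in the 250 upstream bases of 28 of 34 mitotic genes with a window (82.4%; 40 listed), of 18 of 30 replication genes (60.0%; 37 listed) and of 34.5% of all 27025 windows. TTTGAA on either strand was present in 11 of the 34 mitotic genes (32.4%), 4 of the 30 replication genes (13.3%) and 16.3% of all windows. Capitals mark both motifs. All sequences are from RefSeq, GRCm38.p6, run 5′ to 3′ on the gene's strand and end just before its start in RefSeq. Mki67 is at chr7:135716380-135716572, minus strand, Ncapg at chr5:45669744-45669924, plus strand, and Mcm6 at chr1:128359706-128359855, minus strand.
Mki67: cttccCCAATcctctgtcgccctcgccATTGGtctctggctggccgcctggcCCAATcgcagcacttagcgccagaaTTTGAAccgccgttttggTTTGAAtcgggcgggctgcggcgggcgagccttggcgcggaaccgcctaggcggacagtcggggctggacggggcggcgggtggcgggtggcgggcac
Ncapg: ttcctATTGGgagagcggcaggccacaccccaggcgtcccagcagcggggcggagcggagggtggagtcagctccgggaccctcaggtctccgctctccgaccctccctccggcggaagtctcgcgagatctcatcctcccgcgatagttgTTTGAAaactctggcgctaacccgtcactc
Mcm6: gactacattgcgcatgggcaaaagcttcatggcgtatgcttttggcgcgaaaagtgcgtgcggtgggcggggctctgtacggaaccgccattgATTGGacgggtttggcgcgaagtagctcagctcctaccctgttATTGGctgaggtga
Mki67 and Ncapg, the mitotic pair, hold both motifs, and Mcm6 holds CCAAT only. The shares describe sequence and do not bear on the difference between the regimens.

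Cytosolic ribosomal protein genes lay on the other side. Of 55, 6 were positive, the median was -0.59 and 11 had an unadjusted p under 0.05. With the depth floor as a covariate, which is itself tied to the regimen, the median was 0.17 beside -0.0073 for all genes. Rps4x had 351, 309, 333 and 380.1 FPKM in fixed morphine, against 355, 1411 and 1307 FPKM in escalating morphine, Rpl18 had 147, 144, 160.1 and 166 FPKM in fixed morphine, against 150.5, 500.1 and 518 FPKM in escalating morphine, and Fau, which encodes a ribosomal protein fused to a ubiquitin-like protein, had 404, 231, 243 and 400.0 FPKM in fixed morphine, against 283, 1467 and 1348 FPKM in escalating morphine. In these 3 genes escalating replicate 1 lay with the fixed libraries. With it left out, the median was -1.04 and 18 of the 55 were called lower in fixed morphine (32.7%), against 2.39% of all genes. Many ribosomal genes have processed pseudogenes that can share reads, so their single values are uncertain. Genes of oxidative phosphorylation had a median of -0.059 over 45 genes and mitochondrial ribosomal proteins 0.097 over 42, with 1 and 4 at an unadjusted p under 0.05. These medians were -0.26 and -0.014 without escalating replicate 1. Disease-associated microglial genes had a median of -0.037 over 25 genes, genes linked to neuropathic pain in spinal microglia -0.020 over 26, purinergic genes 0.12 over 14, glycolytic genes 0.15 over 27 and proteasome subunits 0.23 over 32. Within these 5 lists, in that order, 2, 3, 2, 1 and 6 genes had an unadjusted p under 0.05. Their medians with that library left out were 0.12, 0.13, 0.37, 0.30 and 0.12. The first 2 changed sign but stayed below the median of all genes, which also rose. Relative to that median, purinergic genes moved from -0.064 to 0.083, glycolytic genes from -0.035 to 0.012 and proteasome subunits from 0.049 to -0.18.

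Cholesterol synthesis and uptake genes had a median of 0.45 (0.58 without escalating replicate 1), with 21 of 23 positive and 8 at an unadjusted p under 0.05. Acat2, which makes an early precursor in the pathway, had 7.07, 19.1, 20.2 and 6.62 FPKM in fixed morphine, against 8.34, 3.55 and 2.30 FPKM in escalating morphine, and Insig1, a sterol sensor that restrains the pathway, had 6.62, 13.1, 16.4 and 6.28 FPKM in fixed morphine, against 7.32, 2.99 and 2.98 FPKM in escalating morphine. Both were highest in fixed replicates 2 and 3, as the cell-cycle genes were. Acat2, Insig1 and Mvd were called higher when escalating replicate 1 was left out. Splicing factors had a median of 0.25 over 33 genes (0.25 without escalating replicate 1) with 27 positive and 7 at an unadjusted p under 0.05. Relative to the median of all genes, the splicing median was 0.069, and -0.039 without escalating replicate 1. Srsf7, a splicing factor gene of the SR family, had 36.7, 50.5, 53.6 and 33.6 FPKM in fixed morphine, against 23.7, 20.3 and 18.7 FPKM in escalating morphine, with no overlap between the groups. Ddx5, an RNA helicase gene of the same list, had 75.6, 55.9, 64.1 and 72.8 FPKM in fixed morphine, against 66.5, 289 and 216 FPKM in escalating morphine, and it was called lower without escalating replicate 1. Lars2, which charges leucine onto transfer RNA in mitochondria, had 1029.6, 708, 1187 and 917 FPKM in fixed morphine, against 982, 246 and 401 FPKM in escalating morphine (difference 1.04 ± 0.47, limma adjusted p = 0.372). It was called higher without escalating replicate 1, at 1.58 (adjusted p = 0.0442).

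**Figure D4:**
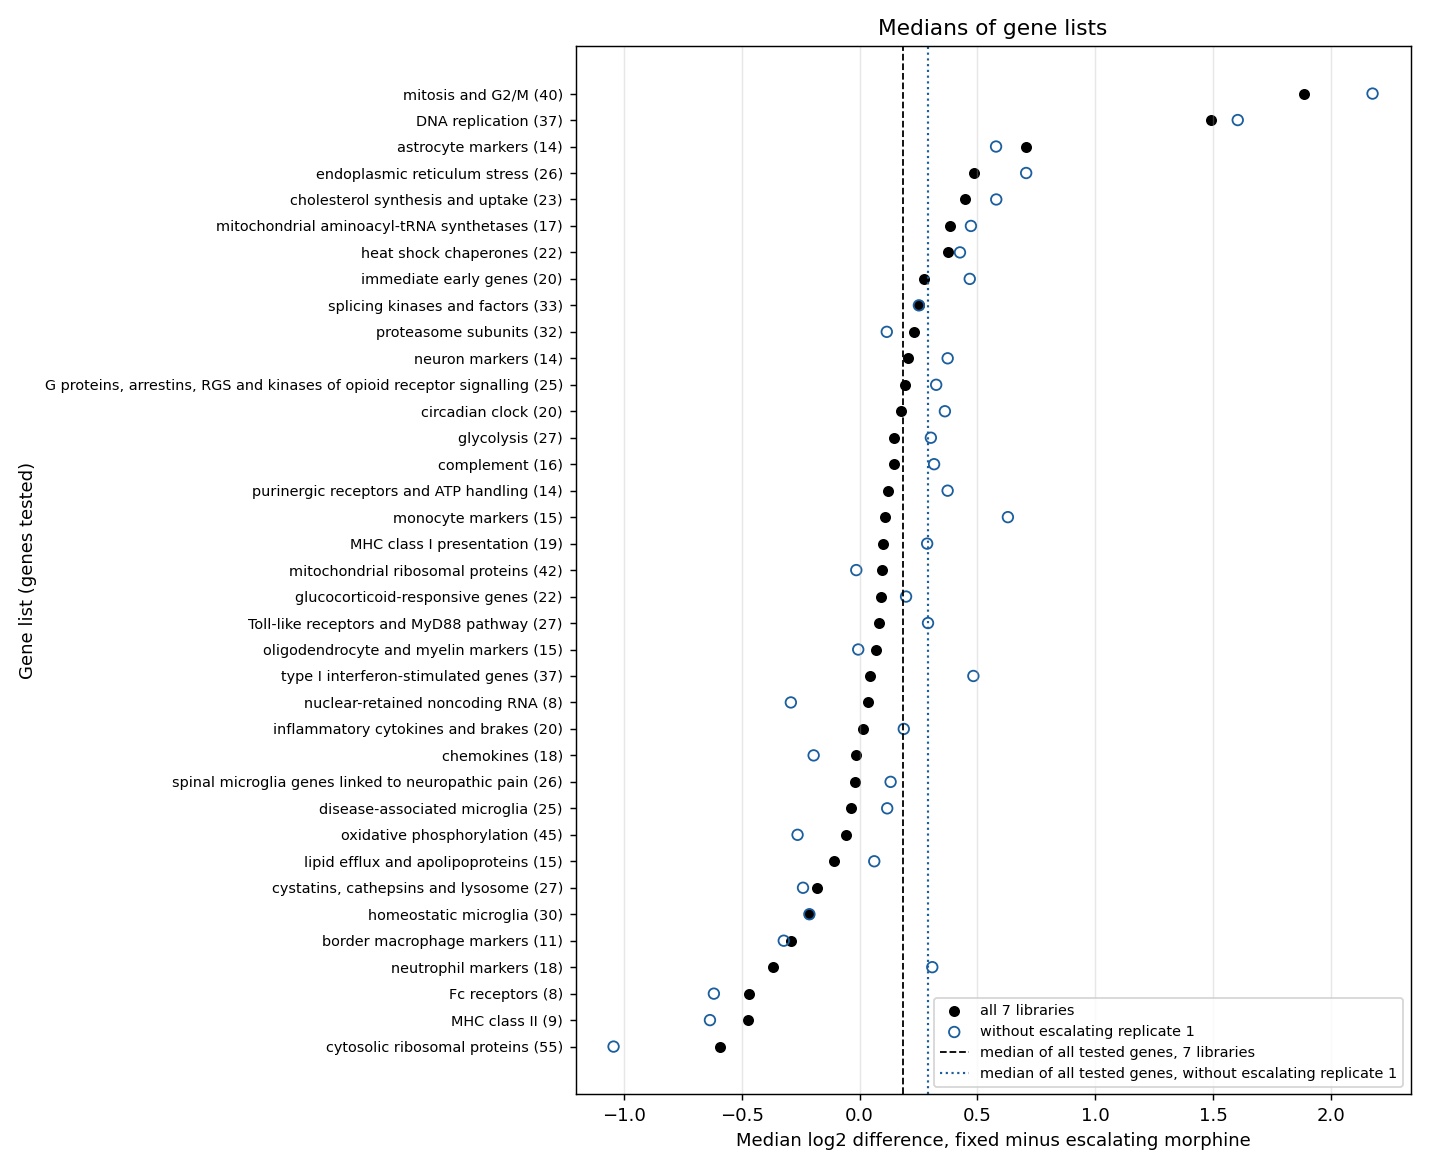
Median log2 difference, fixed minus escalating morphine, of each list with at least 8 tested genes, with all 7 libraries (filled) and without escalating replicate 1 (open); vertical lines give the median of all tested genes, 0.18 and 0.29. The mitotic and replication lists lie highest at 1.89 and 1.49, and the cytosolic ribosomal proteins lowest at -0.59.

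Markers of neutrophils and monocytes were highest in 1 library of each regimen. The 18 neutrophil genes summed to 2562, 3998, 2018 and 20796 FPKM in fixed morphine and to 14477, 3662 and 5114 FPKM in escalating morphine. The 15 monocyte genes summed to 172, 294, 203 and 1984 FPKM in fixed morphine and to 974, 188 and 239 FPKM in escalating morphine. Fixed replicate 4 and escalating replicate 1 were the highest of their groups in both lists, and they were also the most alike pair between the regimens. S100a8, a calcium-binding protein gene abundant in neutrophils, had 444, 593, 326 and 3981 FPKM in fixed morphine, against 1684, 1478 and 1881 FPKM in escalating morphine, and Fn1, the fibronectin gene of the monocyte list, had 6.84, 11.6, 9.57 and 43.3 FPKM in fixed morphine, against 38.3, 2.00 and 2.65 FPKM in escalating morphine. The median was -0.37 for the neutrophil and 0.11 for the monocyte list, and 0.31 and 0.63 without escalating replicate 1. No gene of either list was called, with or without escalating replicate 1, and 0 neutrophil and 1 monocyte genes had an unadjusted p under 0.05. Fn1's difference of 0.96 ± 0.85 was -1.07 with the depth floor as a covariate. Apoe, which macrophages and astrocytes express, varied from 474 to 7313 FPKM in fixed morphine and from 1319 to 2866 FPKM in escalating morphine.

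The 14 astrocyte markers had a median of 0.71 (0.58 without escalating replicate 1) with 13 positive and 1 at an unadjusted p under 0.05, and their sum was 75.3, 127, 226 and 99.2 FPKM in fixed morphine against 49.7, 76.2 and 88.0 FPKM in escalating morphine. Fixed replicate 3 was highest and fixed replicate 1 lay within the escalating range. Aqp4, the astrocytic water channel gene, had 2.58, 4.03, 5.56 and 2.45 FPKM in fixed morphine, against 0.927, 1.11 and 2.29 FPKM in escalating morphine, and Mbp, the myelin basic protein gene, had 64.7, 90.8, 137 and 80.4 FPKM in fixed morphine, against 47.3, 28.2 and 23.8 FPKM in escalating morphine. In both, the fixed libraries lay above all escalating libraries. The difference of Mbp was 1.47 ± 0.58, while the 15 oligodendrocyte and myelin markers had a median of 0.07 with 9 positive and 1 at an unadjusted p under 0.05, and of -0.0056 with 6 positive without escalating replicate 1. They summed to 1222, 883, 903 and 1139 FPKM in fixed morphine and to 1210.3, 1134 and 935 FPKM in escalating morphine. Of the T and NK cell list, 4 of 15 genes passed the filter, and the CD3 chain genes Cd3d, Cd3e and Cd3g did not. Of the endothelial and mural list 6 of 17 passed, without Cldn5 and Cdh5. What part these other cells had in the differences was not tested.

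**Figure D5:**
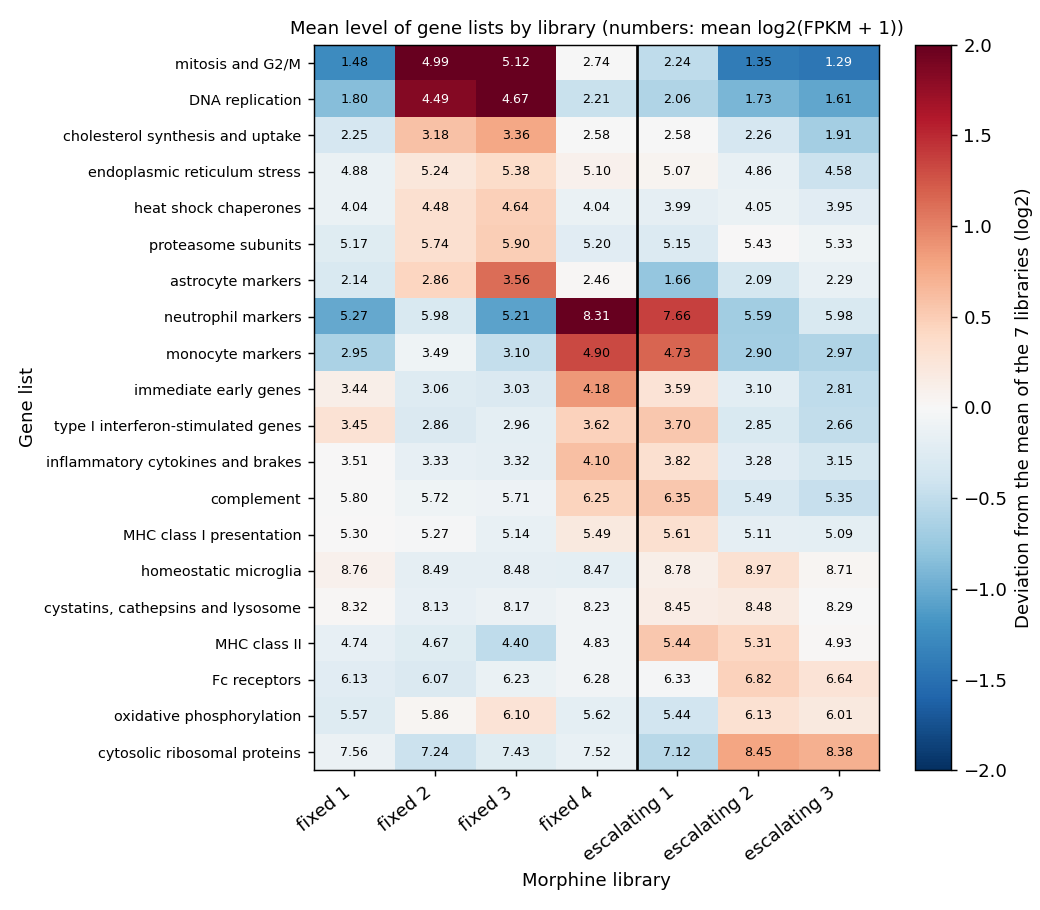
Mean log2(FPKM + 1) of 20 gene lists (numbers) in each morphine library, coloured by the deviation from the list's mean over the 7 libraries, fixed left of escalating. Fixed 2 and 3 are high for mitosis, at 4.99 and 5.12, fixed 4 and escalating 1 for neutrophil markers, at 8.31 and 7.66, and escalating 2 and 3 for cytosolic ribosomal proteins, at 8.45 and 8.38.

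Whether the regimens also differed under saline was read from the saline libraries of the same regimens, and the difference between the 2 contrasts was tested in the same model. That test called 1 of 11759 genes (0.0085%; limma, Benjamini-Hochberg), and 1377 (11.7%) had an unadjusted p under 0.05. The called gene was Clk2, which encodes a kinase of SR splicing proteins and had 16.7, 12.1, 13.2 and 13.7 FPKM in fixed morphine, against 15.9, 4.72 and 6.02 FPKM in escalating morphine. In fixed saline its listed value was 0 in each of the 4 libraries, against 4.62, 3.81 and 4.81 FPKM in escalating saline (adjusted p of the difference between the contrasts = 0.0439). The Clk2 call thus rests on values listed at 0 in fixed saline. Fixed minus escalating saline itself called 1 gene (0.0085%), again Clk2, and 1587 (13.5%) had an unadjusted p under 0.05. For Lrrc25, the saline values were 46.2, 29.4, 68.4 and 76.0 FPKM in fixed saline, against 21.0, 27.0 and 25.5 FPKM in escalating saline, the opposite order to that under morphine. The difference of the 2 contrasts was -2.71 for Lrrc25 (adjusted p = 0.173), so it missed the threshold. Other genes described above had a similar difference under saline. Ly96 differed by -1.08 between fixed and escalating saline, and the difference of the 2 contrasts was 0.03 (adjusted p = 0.989). For Tgfb1 the saline difference was 1.35 and that of the contrasts 0.069 (adjusted p = 0.985). Lars2 had 175, 278, 133 and 61.7 FPKM in fixed saline, against 33.8, 26.1 and 34.4 FPKM in escalating saline, a difference of 2.15 in the same direction as under morphine (difference of the contrasts -1.11, adjusted p = 0.536). None of these 3 passed the threshold in the saline contrast, with adjusted p of 0.161, 0.257 and 0.117.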

How the data were processed

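The authors deposited 1 table of FPKM values, 24888 genes in 30 libraries, with symbols as row names. Libraries were made with Smart-Seq2 and Nextera XT, per the labels' protocols. The build was mm10, per the submitters' processing notes, which list featureCounts 1.4.6, Cufflinks 2.2.1, DESeq2 and HISAT2 2.0.5.1; which tool made the FPKM values, and from which annotation, is not given in the sources used here. The values carry no read counts, so no count test was possible.

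Here, 826 rows of 281 repeated symbols were left out, and 11759 genes reaching 1 FPKM in 2 or more of the 30 libraries were tested. Differences on log2(FPKM + 1) came from limma 3.58.1 under R 4.3.3 (intensity trend, two-sided moderated tests, Benjamini-Hochberg adjustment over all tested genes, threshold 0.05), in 1 fit of the 7 morphine and 7 saline libraries with a mean per group. The procedure was also run on simulated data, with independent normal noise and known changes added in fixed morphine. That setting holds no library that stands apart from its group, so it is no check on the calls reported here. Depth was compared by the 5th percentile of nonzero FPKM times transcript length from GENCODE M21. Promoters came from RefSeq, GRCm38.p6. Python 3.11.15 with pandas 2.3.3, scipy 1.17.1 and matplotlib 3.10.9 was used for tables, permutation tests and figures.

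Named genes were the largest called differences averaging 5 FPKM or more in a regimen and no overlap, otherwise the 10 lowest p of that kind per direction, up to 4 members of lowest p per list, a fixed set of microglial, opioid and stress genes, and the 10 lowest p of the test against the saline contrast. The members, lists and rules were chosen with earlier results of these data known. Alternatives covered the pseudocount, filter, scaling, weights, variance trend, libraries in the fit, repeated symbols, depth, a replicate block and leaving out each library.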

Additional observations from a re-analysis of the deposited data

Results flagged for a closer look

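Among 138 genes and list means tested for a stray library within the 4 fixed libraries, 4 had 1 library far from the others, fewer than the about 1 in 20 that chance gives, so the count carries little weight. Tmem119 was low in fixed replicate 4, at 833.4 FPKM. Cst3 was high in fixed replicate 1, at 18574.5 FPKM. H2-DMa was low in fixed replicate 4, at 94.8 FPKM. The mean of the homeostatic list was high in fixed replicate 1, at 8.76 (mean log2(FPKM + 1)).

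Clk2 differed between the morphine and the saline contrasts by 3.19 (log2; limma adjusted p = 0.0439). Of 202 genes compared between the contrasts, the named genes and the genes described above, a further 8 had fixed and escalating libraries fully apart under morphine and fully apart in the opposite direction under saline, and 1, B2m, was fully apart in the same direction in both. Some of these genes were named for their lack of overlap under morphine, and some for their low p in that test. The counts of 8 and 1 thus depend in part on how genes were named. The same counts over all genes were not made. The differences between the contrasts were -3.53 for Lag3, -2.71 for Lrrc25, -1.71 for C1qa, -1.47 for Crlf2 and -0.63 for Cd68, and 1.76 for Pnpt1, 1.68 for Psmd14 and 1.48 for Zfp131. None of the 8 passed the test of that difference over all genes, with adjusted p from 0.167 for Crlf2 to 0.318 for Cd68.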

How the results depend on the processing

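Calls between the regimens (2 with all libraries) numbered 1 with a pseudocount of 0.1 or 5, with no filter, with a filter of 5 FPKM, and with the depth floor as a covariate (103 genes at an unadjusted p under 0.05), 0 with all 30 libraries in the fit, 4766 with array weights (3648 higher, 1118 lower), and 0 without fixed replicates 2 and 3. Leaving out 1 library at a time gave 1 to 1007. The test of morphine against saline contrasts (1 call) gave 2 with a pseudocount of 0.1, with rescaling to a common sum or with repeated symbols kept, 683 with array weights, 0 with no filter, with 30 libraries, with the depth covariate or without fixed replicates 2 and 3, and 0 to 439 with 1 library left out. The saline contrast (1 call) gave 12 with a pseudocount of 0.1, 0 with 5, 0 with no filter, with 30 libraries or without fixed morphine replicates 2 and 3, 2 with quantile normalization, 18 with median-ratio scaling, 6 with the depth covariate and 0 to 207 with 1 library left out. Listed members called (0 with all libraries) numbered 390 with array weights and from 0 to 83 with 1 library left out. The calls with array weights rest on weights that the libraries' own spread sets.

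The labels do not say whether the replicate numbers pair the libraries. Same-numbered fixed and escalating libraries had correlations of their deviations of -0.18, -0.027 and 0.087. With 3 escalating libraries, 1 of them apart from the others, these correlations cannot settle whether the libraries are paired. A replicate block over the 6 libraries numbered 1 to 3 gave 0 calls with limma (635 genes at an unadjusted p under 0.05), against 1 in the same libraries without the block.

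Differences of 14 genes that were not called changed sign. With the depth covariate they were -0.39 for P2ry12, -0.27 for Tap2, -0.077 for Penk, -0.14 for Tlr4, -0.0067 for Tnf, -0.11 for Tgfb1, 1.14 for Fkbp5, 0.17 for Fos and -1.07 for Fn1. With quantile normalization they were 0.32 for Tmem119, 0.12 for Cx3cr1, 0.24 for Apoe, 0.014 for Cd68 and -0.24 for Tnf. Median-ratio scaling gave -0.15 for P2ry12 and -0.090 for Tnf, and rescaling to a common sum 0.042 for Ogfr and 0.15 for Fkbp5. Tnf was also -0.054 with array weights, -0.022 with or without the replicate block, and -0.027 without fixed replicates 2 and 3, where Apoe was 1.34 and Fos 0.31. Leaving out 1 library moved P2ry12 between -0.20 and 0.22, Apoe between -0.98 and 0.33, Tnf between -0.073 and 0.090 and Fkbp5 between -0.27 and 0.19. The causes were not tested. With no counts, no detection limit can be given.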
